A study of Mus musculus with 10 samples.

Results

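The 33 genes described here act in the cell cycle and in DNA replication. They were taken as a named set (2 proliferation markers, 8 genes of G1 and the G1/S step, 7 of origin licensing, 4 of the replication fork and of nucleotide synthesis, 4 of the S/G2/M cyclin group with Cdk1, and 8 of mitosis), and every gene probe whose RefSeq accession belongs to them was read. This gave 47 probes for 33 of 19752 named genes: 24 genes had 1 probe, and for the 9 with several the brightest probe is given. All 33 were on the array.

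RNA was measured on 10 single-colour Agilent arrays, 2 for each of 5 groups. Muscle of male C57BL/6J mice came from untreated wild type animals, from hSA::Fv2E-PERK transgenic animals given vehicle, and from the same transgenic line given AP20187 at 1 ng/g. The cultured cells were C2C12 carrying Fv2E-PERK, with vehicle or with AP20187 at 100 nM. Injected mice and treated cells were collected after 12 h. Fv2E-PERK joins the kinase PERK to a domain that AP20187 pairs, which switches on PERK and with it the integrated stress response, and hSA is a skeletal actin promoter that is active in muscle fibres. C2C12 is a mouse myoblast line; before treatment the cells had been in low serum (2% horse serum) for 3 days, a condition in which they leave the cell cycle and fuse to myotubes. The age of the mice, the muscle taken and whether replicates came from separate animals or cultures are not given in the sources used here. The p-values therefore measure only the spread between these arrays. Wild type mice were not injected, and no wild type mouse received AP20187.

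A cell enters the cycle when D-type cyclins with Cdk4 and then E-type cyclins with Cdk2 release E2F factors, which switch on genes for licensing and copying DNA. Cdc6 helps to load the MCM ring of Mcm2 to Mcm7, the helicase that opens DNA at origins. Pcna is the sliding clamp of DNA polymerases, Rrm1 and Rrm2 are the subunits of ribonucleotide reductase, and Tyms makes thymidylate. Later, cyclins A2, B1 and B2 with Cdk1 drive the cell into mitosis, where Plk1, the Aurora kinases, survivin (Birc5), Bub1, Bub1b and Mad2l1 build and monitor the spindle and Cdc20 activates the anaphase-promoting complex. Muscle fibres are post-mitotic, so that in muscle tissue these genes are best known from satellite cells and other dividing cells, and in C2C12 from myoblasts.

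Promoters of such genes are known for E2F sites, for the cell cycle homology region (CHR) of late genes and for CCAAT boxes. In the RefSeq promoter table (GRCm38.p6, 250 bases before to 50 after each start), 27 of the 33 genes had a window. An E2F motif (TTTCGCGC, TTTGGCGC or TTTCCCGC, on either strand) was in windows of 7 of the 27 genes, or 25.9%, against 2.12% of all genes in that table. A CHR motif (TTTGAA or TTCGAA) was in 11, or 40.7%, against 21.7%, and CCAAT was in 20, or 74.1%, against 41.1%. Matches of different motifs shared a base in 1 case. Of the 5 MCM genes with a window 4 held an E2F motif, and of the 3 S/G2/M cyclin and Cdk1 genes with a window 3 held CCAAT and 2 a CHR. The 250 bases before the start are shown for Ccnb2, Plk1 and Cdk1, which are among the 4 genes with the largest fitted differences between muscle and C2C12, for Mcm7, which rose most with AP20187 in muscle, and for the D-type cyclin gene Ccnd3 for contrast. Capitals mark matches to the 3 motifs on either strand (ATTGG is CCAAT on the other strand), and each sequence runs 5′ to 3′ along its gene. They lie at chr9:70421555-70421804 (minus strand), chr7:122159185-122159434 (plus), chr10:69352913-69353162 (minus), chr5:138171884-138172133 (minus) and chr17:47504801-47505050 (plus).
Ccnb2: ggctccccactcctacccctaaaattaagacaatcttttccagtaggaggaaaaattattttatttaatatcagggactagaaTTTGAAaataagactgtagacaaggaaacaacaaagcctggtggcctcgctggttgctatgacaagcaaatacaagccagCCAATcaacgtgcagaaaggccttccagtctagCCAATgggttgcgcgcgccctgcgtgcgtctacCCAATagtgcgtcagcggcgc
Plk1: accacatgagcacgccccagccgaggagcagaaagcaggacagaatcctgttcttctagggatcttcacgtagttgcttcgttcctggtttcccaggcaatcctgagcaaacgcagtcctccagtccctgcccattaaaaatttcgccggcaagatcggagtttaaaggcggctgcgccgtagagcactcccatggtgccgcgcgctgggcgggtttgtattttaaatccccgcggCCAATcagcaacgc
Cdk1: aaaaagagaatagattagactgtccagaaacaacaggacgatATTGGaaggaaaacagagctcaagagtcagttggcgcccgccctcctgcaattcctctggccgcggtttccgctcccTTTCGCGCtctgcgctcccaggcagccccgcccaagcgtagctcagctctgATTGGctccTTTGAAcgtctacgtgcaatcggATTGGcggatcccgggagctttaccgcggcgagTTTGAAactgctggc
Mcm7: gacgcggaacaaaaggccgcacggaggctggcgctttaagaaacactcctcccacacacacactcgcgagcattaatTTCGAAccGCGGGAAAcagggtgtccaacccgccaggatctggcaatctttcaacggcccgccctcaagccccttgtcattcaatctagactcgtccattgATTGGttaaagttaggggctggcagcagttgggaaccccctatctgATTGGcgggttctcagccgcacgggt
Ccnd3: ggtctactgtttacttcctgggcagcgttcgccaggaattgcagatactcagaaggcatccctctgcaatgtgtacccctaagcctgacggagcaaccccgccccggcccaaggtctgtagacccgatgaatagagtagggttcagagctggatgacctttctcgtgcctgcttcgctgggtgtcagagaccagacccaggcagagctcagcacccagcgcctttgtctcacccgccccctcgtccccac
In the 250 bases shown for Ccnb2, CCAAT matches began 87, 54 and 21 bases before the start and a CHR match 167 bases before it. The bases shown for Plk1 held a CCAAT match 14 bases before the start. The whole windows, with the 50 bases after the start, held 2 CHR matches for Ccnb2 and 1 for Plk1. In Cdk1 the E2F match began 131 bases and the CHR matches 71 and 15 bases before it, with CCAAT matches at 208, 80 and 48. The bases shown for Mcm7 held a CHR match 173, an E2F match 165 and CCAAT matches 72 and 26 bases before the start, and no capitals fall in the stretch of Ccnd3 that is shown. Ccnd3 had 2 windows in all and held a CCAAT match outside this stretch, so that it is among the 20 genes with CCAAT. A match is a description of the letters and not a site.

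Each level is the log2 spot intensity relative to the 75th percentile of the gene spots on its array, which is 0 on this scale. Gene spots well above background made up 41.0% to 53.1% per array, and 0.160% to 2.37% carried an outlier flag and were left out. The 2 arrays of a group correlated at r of 0.983 to 0.992 over genes. Per the headers the arrays were scanned in 3 sessions: wild type muscle in the first, all transgenic muscle in the second and C2C12 in the third. Genotype and session therefore cannot be told apart, nor can tissue and session, while the AP20187 comparisons lie within a session each. In transgenic muscle, per the headers, vehicle samples were in column 1 of the slide and AP20187 samples in columns 3 and 4. The effects of column and treatment cannot be told apart there. The tissue labels were set against markers. All 10 markers of muscle fibres were above background in every muscle group, 9 of 10 were so on both C2C12 vehicle arrays and 6 of 10 on both C2C12 AP20187 arrays. Of 7 myoblast and satellite cell markers 5 were above background on both arrays of each C2C12 group, and Pax7 and Myf5 were so on no C2C12 array. The summed level of the 7 was 6.12 to 6.23 (log2) in C2C12 vehicle, 5.81 to 5.97 in C2C12 AP20187 and 4.63 to 4.72 in wild type muscle. In C2C12, 7 of 8 myotube markers were above background on both vehicle arrays and 4 of 8 on both AP20187 arrays. A marker left without a value by outlier flags counts here as not above background. Flags covered 2.37% and 2.00% of gene spots on the C2C12 AP20187 arrays, against 0.376% and 0.278% on the vehicle arrays. The lower AP20187 counts therefore do not tell dim markers from flagged ones.

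**Figure D1:**
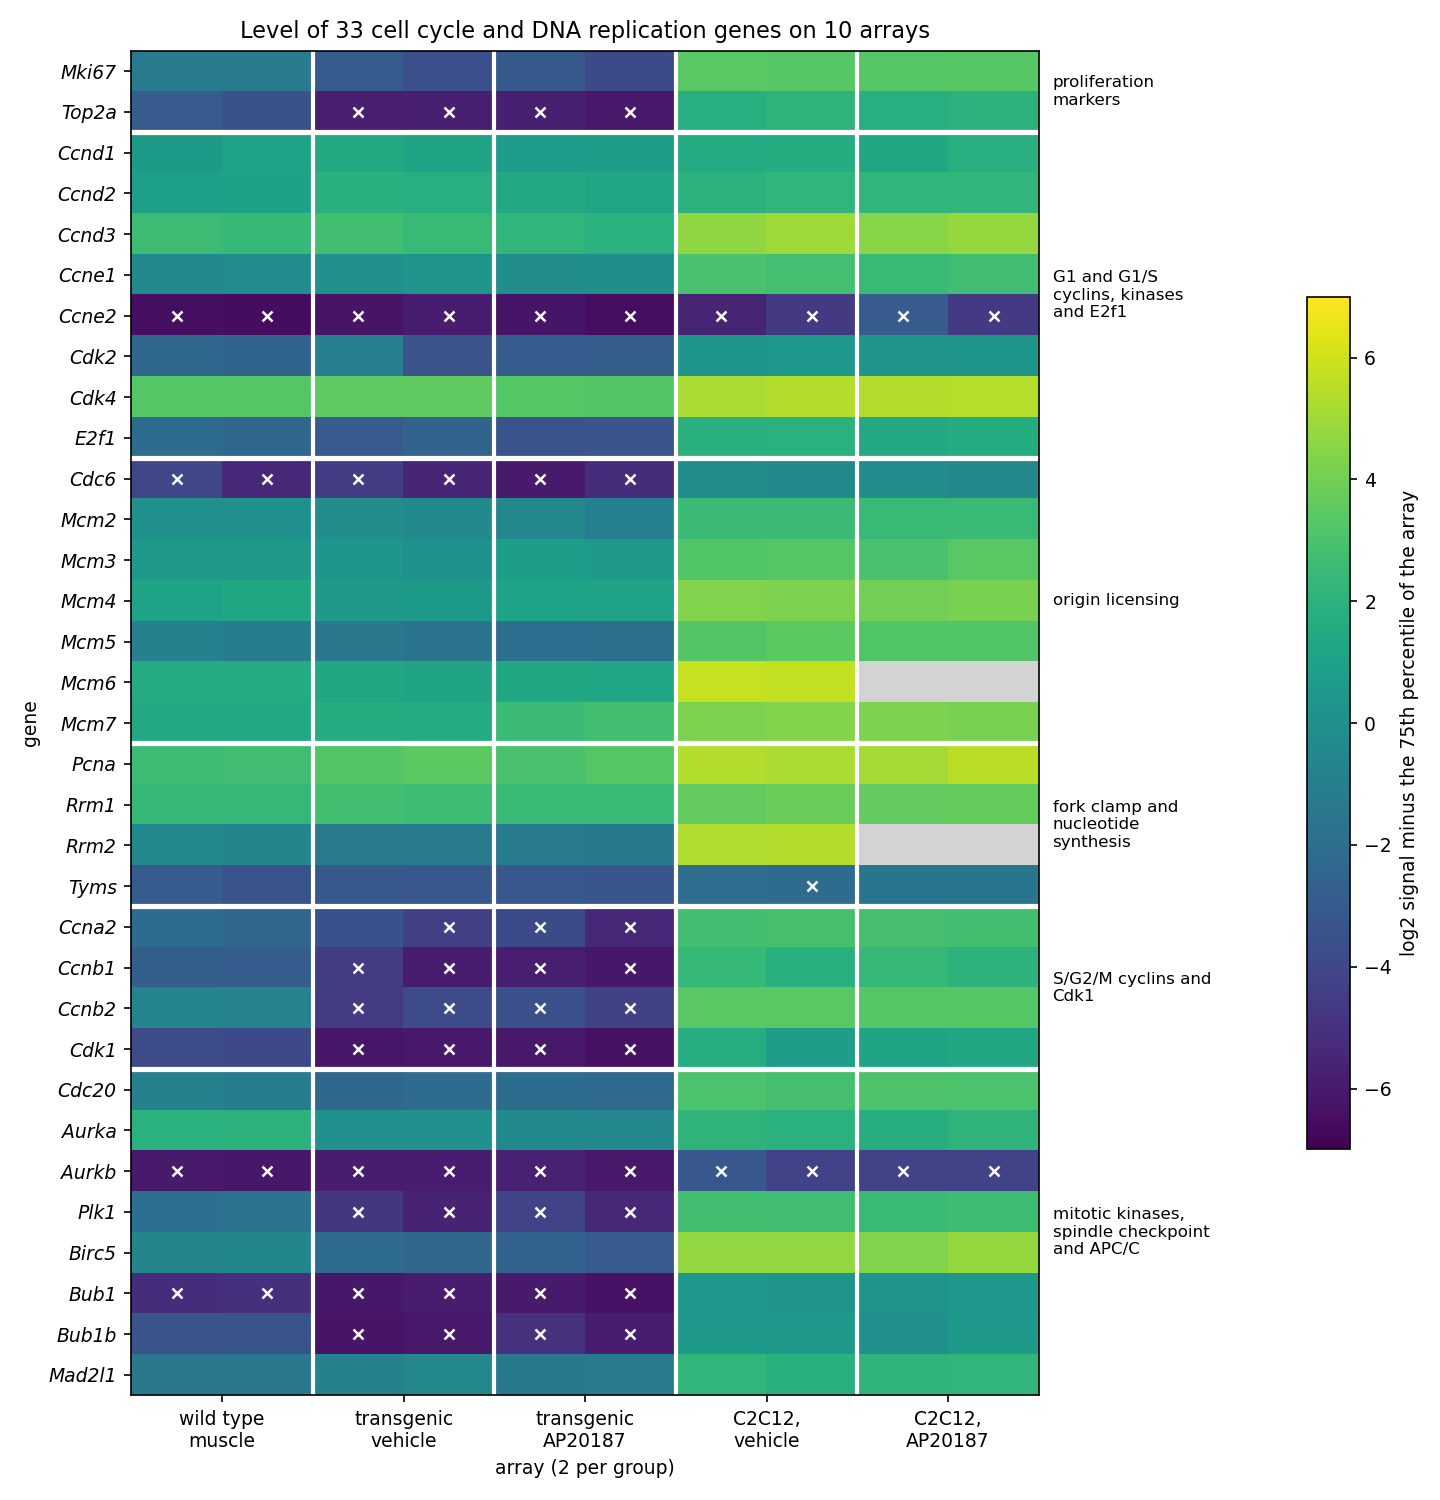
Heat map of the log2 level (signal minus the 75th percentile of the array) of the 33 genes, in rows by role, on the 10 arrays, in columns with 2 per group. White crosses mark values not well above background and grey marks flagged spots with no value; the 4 S/G2/M cyclin and Cdk1 genes are dark and nearly all crossed in both transgenic muscle groups and bright in C2C12.

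In muscle of the transgenic mice most G1 and replication genes were above background, as were 4 of the 8 mitotic genes, while the S/G2/M cyclins and Cdk1 were mostly below it. Of the 33 genes, 29 were above background on both arrays in wild type muscle, 22 in transgenic vehicle muscle (and 1 more, Ccna2, on a single array), 22 in transgenic AP20187 muscle, 30 in C2C12 vehicle (and 1 more, Tyms, on a single array) and 29 in C2C12 AP20187. Over all named genes the shares ran the other way between tissue and cells, from 66.8% in wild type, 64.3% and 63.7% in the transgenic groups to 56.1% and 54.3% in C2C12. The S/G2/M cyclins and Cdk1 made the sharpest contrast: 4 of 4 were above background in wild type muscle and in both C2C12 groups, and 0 of 4 on both arrays in either transgenic muscle group. By comparison 7 of the 8 G1 and G1/S genes were above background in all 5 groups. The cyclin E2 gene Ccne2 and the Aurora kinase gene Aurkb were not above background on any of the 10 arrays, and Cdc6 and the checkpoint kinase gene Bub1 were above it only in C2C12. The spots of Mcm6 and Rrm2 carried outlier flags on both C2C12 AP20187 arrays, so that they have no value there. In tissue, fewer cells of a type and less RNA per cell cannot be told apart.

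Transgenic vehicle muscle lay below C2C12 vehicle in all members tested, far below in most and least so in the cyclins D1 and D2. Of 31 genes tested 29 were lower and 0 higher, at a Benjamini-Hochberg adjusted p under 0.05 in limma, and all 31 differences were below 0. Over all 14292 genes tested, 38.5% were lower and 40.2% higher. The median log2 difference was -4.52 over the members and 0.04 over all genes tested. Where a gene was not above background on either array of the dimmer group, its fold is a lower bound, computed with the lowest signal among well-measured probes of each dim array (or the gene's own, if higher) and written as at least. With 8 such genes at their bounds the members' median was -3.73. With normexp, which adds an offset of 50 to each signal, the median was -2.53 with 29 members again lower, and the difference was -3.92 for Plk1 and -3.31 for Top2a, so that the folds and bounds below hold for the scanner's processed signal only. Cdc6 and Bub1 entered the test only through C2C12 and are part of these medians.

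The 4 largest fitted differences were those of Plk1, Top2a, Ccnb2 and Cdk1. Ccnb2, the cyclin B2 gene whose promoter holds 3 CCAAT matches above, read -4.52 and -3.82 on the transgenic vehicle arrays and 3.42 and 3.43 on the C2C12 vehicle arrays. That is at least 159-fold lower in muscle. Plk1, a kinase that drives mitotic entry and spindle assembly, stood at -4.75 and -5.63 in muscle against 2.75 and 2.70 in C2C12, at least 98.6-fold lower. For the topoisomerase gene Top2a the values were -5.82 and -5.78 against 1.84 and 2.10, at least 58.4-fold. Cdk1, the mitotic kinase itself, had -6.17 and -6.06 against 1.73 and 0.86, at least 36.4-fold by its brightest probe. Its other probes were dim and did not bear this out: one, above background on 4 arrays, differed by 0.95 in the other direction, one above it on 0 arrays by -1.37, and the mean over the probes was -2.61. In all 4 genes, by the probes used, every muscle array was far below every C2C12 array. Mki67, the Ki-67 proliferation antigen, was above background everywhere and so gives a measured fold: -2.90 and -3.57 against 3.41 and 3.35, or 98.2-fold (log2 difference -6.62, SE 0.27, adjusted p = 2.25e-09). Birc5 was 126-fold lower, Cdc20 35.7-fold, Ccnb1 at least 65.5-fold by its brightest probe, Bub1b at least 21.6-fold and Bub1 at least 19.4-fold. The other, dimmer probes of Ccnb1 gave smaller log2 differences, -4.39 and -4.38, where the brightest gave -7.35. Ccna2 differed by -6.75 (SE 0.43), with 1 of its 2 muscle arrays above background. The spindle checkpoint gene Mad2l1 (6.63-fold) and Aurka (3.80-fold), the kinase of spindle poles, differed least within the mitotic group.

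Replication genes took a middle place. All 6 MCM genes were lower in muscle, from 6.40-fold for Mcm7 and 6.84-fold for Mcm2 to 22.9-fold for Mcm6 and 28.9-fold for Mcm5, with Mcm3 and Mcm4 at 7.84-fold and 13.2-fold. Cdc6 was at least 12.7-fold lower. The subunits of ribonucleotide reductase parted: Rrm2, the subunit known for its cell cycle regulation, was 92.2-fold lower, whereas Rrm1 read 2.74 and 2.63 in muscle and 3.62 and 3.85 in C2C12, or 2.08-fold lower. Tyms stood at -3.07 and -3.18 against -1.98 and -2.09, a difference of -1.09 (SE 0.26, adjusted p = 0.00273) that missed the threshold after quantile normalization, where it was -0.42 (adjusted p = 0.116). Pcna, which also serves DNA repair, read 3.24 and 3.45 against 5.38 and 5.23, or 3.88-fold lower.

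The cyclins D1 and D2 differed least, while the other G1 genes ranged widely. Ccnd1 gave 1.51 and 1.2 in transgenic vehicle muscle and 1.59 and 1.67 in C2C12 vehicle, a difference of -0.27 with a 95% interval of -0.65 to 0.10 (adjusted p = 0.160). Ccnd2 gave 1.89 and 1.76 against 1.99 and 2.21, a difference of -0.27 with an interval of -0.54 to -0.01 (adjusted p = 0.0539). In both cyclins the muscle arrays were below the C2C12 arrays by a small margin. Ccnd3, the third D-type cyclin gene, differed clearly, with 2.77 and 2.42 against 4.69 and 4.99 (4.75-fold lower, adjusted p = 2.32e-07). Cdk4 was 3.40-fold, Cdk2 6.10-fold, Ccne1 6.57-fold and the transcription factor gene E2f1 25.6-fold lower. Among other pathway genes, 36 of 38 tested genes of the spindle, kinetochore and cytokinesis list were lower and 2 higher (median -4.52), and 26 of 40 of the origin and replication list were lower and 5 higher (median -2.07). In the fits of the muscle arrays 28 and 39 genes of these lists could be tested. The others entered here only through C2C12, where they are high, so that their count carries no weight of its own. Both medians include them. CDK inhibitors and pocket proteins split, with 5 of 11 lower and 4 higher.

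**Figure D2:**
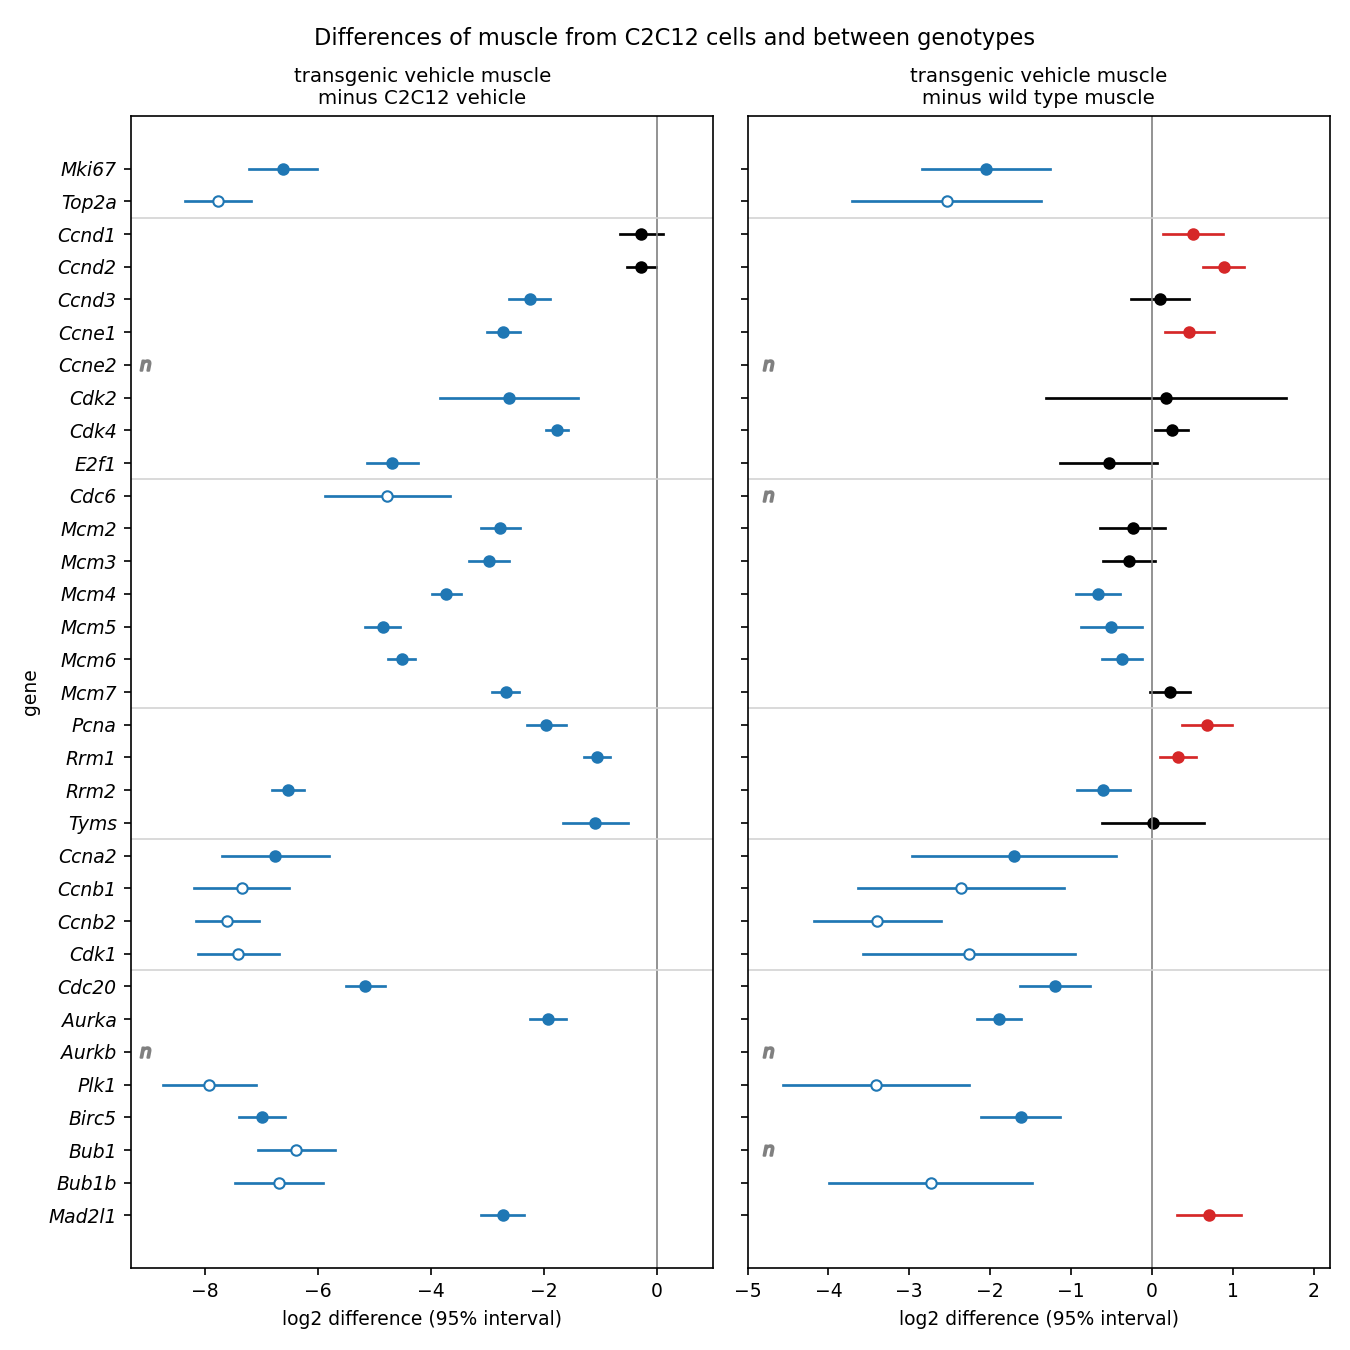
Log2 differences with 95% intervals from limma for the 33 genes, transgenic vehicle muscle minus C2C12 vehicle on the left and minus wild type muscle on the right. Blue is lower and red higher at an adjusted p under 0.05, black did not pass, open points are genes not above background on either array of a group, and n was not tested; on the left Ccnd1 and Ccnd2 alone stay near 0 (-0.27 each).

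The contrast between tissue and cells was largely shared by wild type muscle. With wild type muscle in place of transgenic vehicle muscle, 30 of 31 members were lower and 28 of the 29 called before were called again. The exception was Aurka, which read 1.96 and 1.99 in wild type muscle and 2.08 and 1.93 in C2C12 vehicle (difference -0.03, adjusted p = 0.834). Ccnd1 and Ccnd2 were thus among the genes lower in wild type muscle, unlike in transgenic vehicle muscle. Their means were 0.85 and 0.94 in wild type muscle and 1.63 and 2.10 in C2C12 vehicle. Markers of other cells differed as well: all 8 endothelial markers and 11 of 14 macrophage and leucocyte markers were higher in transgenic vehicle muscle than in C2C12, and the part of tissue composition in the members' differences was not tested.

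Transgenic vehicle muscle had lower Mki67, Aurka, Birc5 and Cdc20 than untreated wild type muscle, and G1 and replication genes differed in both directions. Of 29 members tested, 15 were lower and 6 higher (limma, adjusted p under 0.05). Over all 13543 genes tested, 12.6% were lower and 25.7% higher. The median log2 difference was -0.50 over the members (-0.37 with 6 genes at their bounds) and 0.09 over all genes. Top2a, Ccna2, Ccnb1, Ccnb2, Cdk1, Plk1 and Bub1b entered this test only through wild type muscle, so that their count carries no weight of its own. The medians over the members include these genes and so do not describe the other members alone. Genotype, injection and scan session differ together here.

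Among the genes above background in both groups, Mki67 fell from -1.16 and -1.2 in wild type to -2.90 and -3.57 in transgenic vehicle muscle, or 4.16-fold (log2 difference -2.06, SE 0.34, adjusted p = 0.00303). Aurka read 1.96 and 1.99 against 0.08 and 0.08, which is 3.71-fold lower (adjusted p = 5.86e-05). The survivin gene Birc5 was 3.08-fold lower (adjusted p = 0.00107) and Cdc20 2.29-fold (adjusted p = 0.00233). In each of these genes all wild type arrays were above all transgenic vehicle arrays, as in some members that were not called. The share of all genes that separate in this way was not computed, so that the separation is no further evidence. For genes that dropped below background only bounds can be given. Ccnb2 read -0.76 and -0.79 in wild type and was at least 8.64-fold lower in transgenic vehicle muscle, Plk1 with -1.86 and -1.68 at least 4.36-fold, and Ccnb1 at least 2.07-fold. Top2a, with -2.99 and -3.53 in wild type, was at least 1.55-fold lower, Bub1b at least 1.40-fold and Cdk1, with -3.78 and -3.92, at least 1.03-fold. Ccna2 had a log2 difference of -1.70 (SE 0.54), with 1 of 2 transgenic arrays above background. With normexp the median over the members was -0.25, and the difference was -0.82 for Mki67, -0.63 for Plk1 and -0.25 for Top2a, which no longer passed (adjusted p = 0.0867). These folds and bounds too hold for the processed signal only.

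Replication genes moved in both directions. Mcm4 (1.59-fold), Mcm5 (1.42-fold), Mcm6 (1.29-fold) and Rrm2 (1.52-fold) were lower, whereas Pcna (1.60-fold) and Rrm1 (1.25-fold) were higher. Pcna rose from 2.60 and 2.73 to 3.24 and 3.45, with no overlap between the groups. Mcm2, Mcm3, Mcm7 and Tyms did not pass, with log2 differences of -0.24, -0.28, 0.22 and 0.01. Of the G1 genes, Ccnd2 was 1.85-fold higher, from 0.89 and 0.99 to 1.89 and 1.76 (adjusted p = 0.000951), Ccnd1 1.42-fold, from 0.65 and 1.04 to 1.51 and 1.2 (adjusted p = 0.0385), and Ccne1 1.38-fold. Mad2l1 was the mitotic gene on the higher side, at 1.63-fold. Ccnd3 (0.10), Cdk2 (0.18), Cdk4 (0.25) and E2f1 (-0.53) did not pass. Cdk2 had transgenic vehicle arrays at -1.02 and -3.41, which are far apart.

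The other pathway genes differed by list. Of 28 spindle, kinetochore and cytokinesis genes tested 12 were lower and 4 higher (median -0.54), and of 39 origin and replication genes 8 were lower and 17 higher (median 0.27). Genes such as Cenpe (-2.27 and -2.23 in wild type, -4.87 and -4.88 in transgenic vehicle muscle) entered this test only through wild type muscle. The count of such genes carries no weight of its own, and the median of -0.54 includes them. Of the E2F, FoxM1 and Myb list, 4 of 12 were lower and 0 higher (limma). Of 6 myoblast and satellite cell markers tested 4 were lower and 1 higher, with a summed level of 4.63 to 4.72 (log2) in wild type and 4.45 to 4.59 in transgenic vehicle muscle, and of 14 macrophage and leucocyte markers 3 were lower and 1 higher, with sums of 5.52 to 5.60 and 5.29 to 5.45. Myf5 was not above background on any of these arrays. The part of these cells in the members' differences was not tested.

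Scaling and single arrays bear on this comparison. With the 75th percentile taken over probes above background on all arrays, the median of all genes moved by -0.20, 41.0% of the called genes were higher in place of 67.1%, and 16 members were lower and 3 higher; after quantile normalization these were 54.3%, 13 and 4. Without wild type replicate 1 the count of called members was 10 in place of 21 (Mki67, Ccnd2, Mcm4, Pcna, Ccnb2, Cdc20, Aurka, Plk1, Birc5 and Bub1b), and without wild type replicate 2 it was 12. Without transgenic vehicle replicate 1 Ccnd1, Mcm5, Rrm1 and Ccna2 lost their calls, and without replicate 2 Ccne1, Mcm5, Mcm6, Rrm1, Rrm2, Ccna2 and Mad2l1 did. Of the 21 calls 9 held under every alternative tried: Mki67, Ccnd2, Mcm4, Pcna, Ccnb2, Cdc20, Aurka, Plk1 and Birc5. Probes also disagreed: a dim second probe of Cdk1 differed by 1.73 and a dim probe of Ccnb1 by 0.11, where the brightest ones gave -2.26 and -2.36.

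In transgenic muscle 2 MCM genes were called higher and the D-type cyclins lower after AP20187, and only the call of Mcm7 held under every alternative tried. Of 29 members tested 2 rose (Mcm7 and Mcm4) and 5 fell (Ccnd1, Ccnd2, Ccnd3, Aurka and Mad2l1) at an adjusted p under 0.05 in limma. Over all 13543 genes tested, 14.3% rose and 15% fell, so that the members' shares, 6.90% and 17.2%, were near or below those of all genes. The median log2 change was -0.24 over the members and -0.11 over all genes. This comparison and the previous one share the transgenic vehicle arrays, and their changes are not independent.

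Mcm7 read 1.68 and 1.64 after vehicle and 2.54 and 2.74 after AP20187, a 1.97-fold rise (log2 change 0.98, SE 0.11, adjusted p = 0.00112). Wild type muscle gave 1.43 and 1.45, so that only the AP20187 arrays stood above 2. Mcm4 read 0.54 and 0.61 after vehicle and 1.13 and 1.04 after AP20187 (1.43-fold, log2 change 0.51, SE 0.12, adjusted p = 0.0160), with 1.13 and 1.34 in wild type. In both genes the AP20187 arrays were above the vehicle arrays, as in some members that were not called. The share of all genes that separate in this way was not computed. The ring's other subunits did not follow in step: Mcm3 changed by 0.40 (adjusted p = 0.0637), Mcm6 by 0.07, Mcm5 by -0.37 and Mcm2 by -0.53 (adjusted p = 0.0551), none of them past the threshold. Without transgenic vehicle replicate 1 or 2, or AP20187 replicate 1, Mcm4 missed the threshold too (adjusted p up to 0.0736), whereas Mcm7 passed under all alternatives tried.

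The D-type cyclins, which link growth signals to Cdk4, were all called lower, but none of the 3 passed on the log2 table that the authors also deposited. Ccnd1 went from 1.51 and 1.2 to 0.72 and 0.77, which is 1.53-fold lower (log2 change -0.62, SE 0.16, adjusted p = 0.0256). Ccnd2 went from 1.89 and 1.76 to 1.46 and 1.31, or 1.35-fold lower (adjusted p = 0.0236). Ccnd3 went from 2.77 and 2.42 to 2.21 and 1.96, or 1.42-fold lower (adjusted p = 0.0440). In all 3 cyclins both AP20187 arrays were below both vehicle arrays. Some members that were not called separated in the same direction, so that this does not single out the cyclins. Its share over all genes was not computed. The wild type levels, 0.65 and 1.04 for Ccnd1, 0.89 and 0.99 for Ccnd2 and 2.62 and 2.36 for Ccnd3, lay beside or below those after AP20187 for Ccnd1 and Ccnd2 and above them for Ccnd3. Their partner Cdk4 changed by -0.24 (adjusted p = 0.0722), Ccne1 by -0.26, E2f1 by -0.59 (adjusted p = 0.122) and Cdk2 by -0.64, with none past the threshold.

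Of the mitotic genes Aurka fell 1.42-fold, from 0.08 and 0.08 to -0.32 and -0.54 (adjusted p = 0.0174). Mad2l1 fell 1.47-fold, from -0.87 and -0.51 to -1.33 and -1.15 (adjusted p = 0.0452), but its other, dimmer probes gave 0.81 and -0.03, and the mean over its probes 0.08. Birc5 changed by -0.57 (adjusted p = 0.0735) and Cdc20 by 0.05. For the rest of the late genes the arrays hold little: Top2a, Ccnb1, Ccnb2, Cdk1, Plk1 and Bub1b were not above background in either transgenic group, and Ccna2 was so on 1 of the 4 arrays, so that a fall among them was not detectable, and no rise passed the test. Top2a read -5.82 and -5.78 after vehicle and -5.75 and -6.03 after AP20187, and Cdk1 -6.17 and -6.06 against -6.06 and -6.38. Mki67, which was measured throughout, read -2.90 and -3.57 against -3.03 and -3.85, a change of -0.21 with a 95% interval of -1.0 to 0.58 (adjusted p = 0.669). Pcna read 3.24 and 3.45 against 2.96 and 3.29 (-0.22, interval -0.53 to 0.09). The vehicle and AP20187 arrays of Mki67, Pcna, Top2a and Cdk1 overlapped. Rrm1 (-0.25), Rrm2 (-0.11) and Tyms (-0.11) did not pass either.

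**Figure D3:**
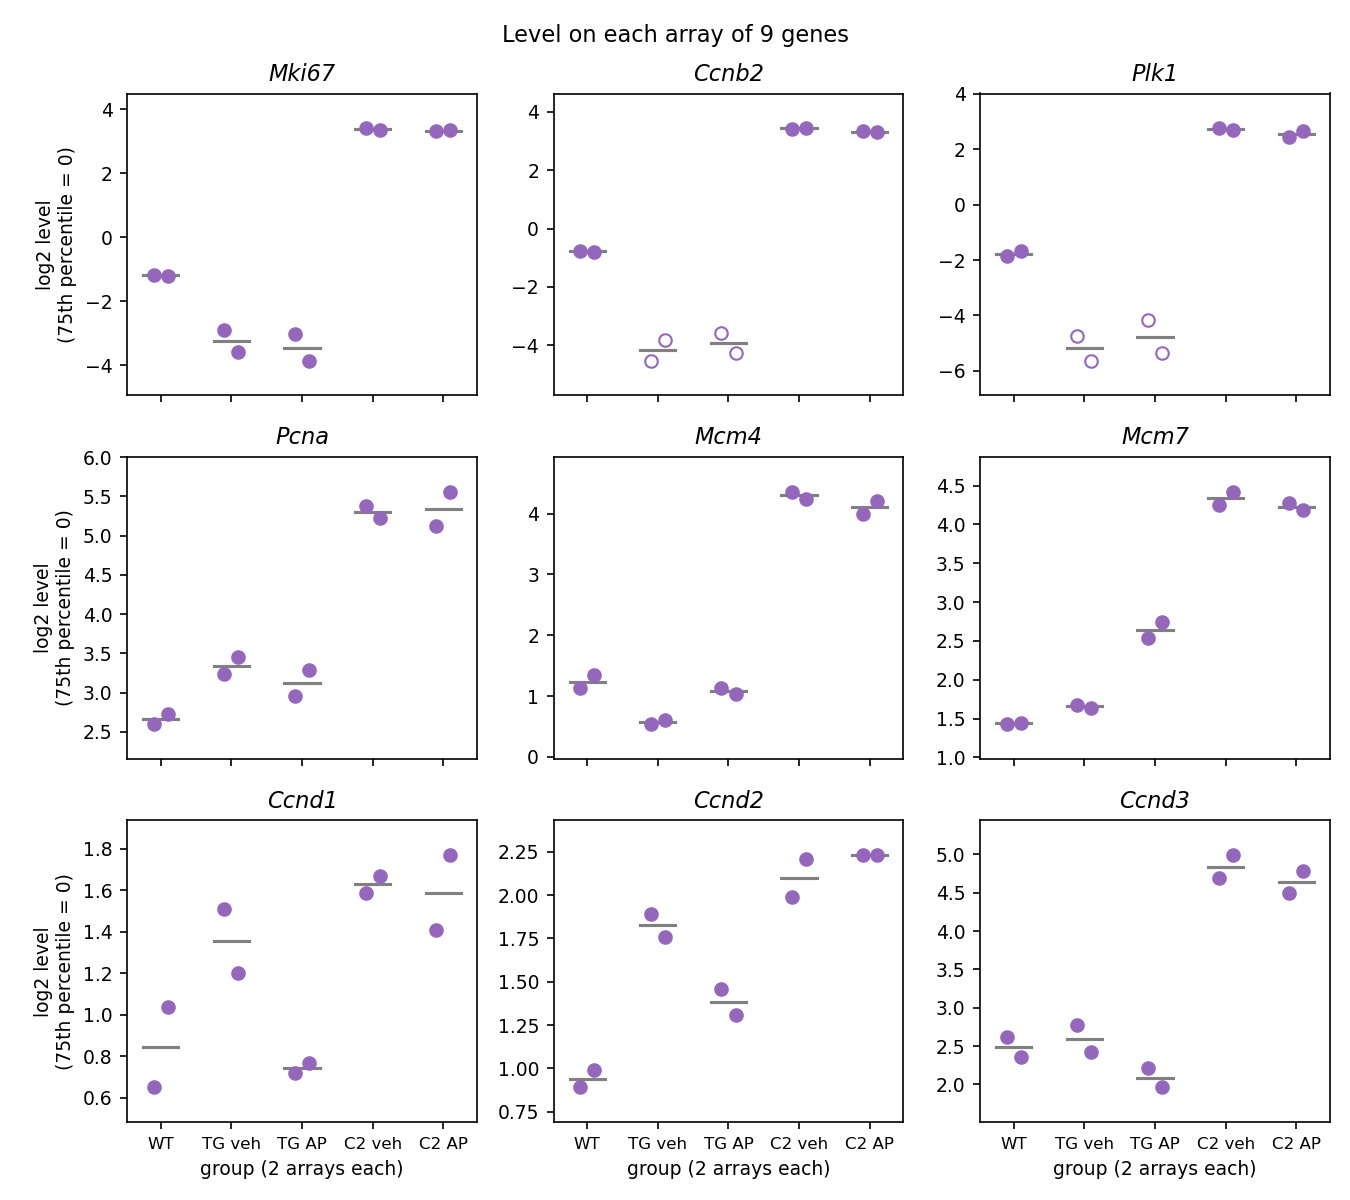
Log2 level on each array (points; open where not well above background) and group mean (grey line) of 9 genes in wild type muscle (WT), transgenic muscle after vehicle (TG veh) or AP20187 (TG AP) and C2C12 after vehicle (C2 veh) or AP20187 (C2 AP). The vertical axes differ between panels and do not start at 0; Mcm7 stands at 2.54 and 2.74 after AP20187 in muscle against 1.68 and 1.64 after vehicle.

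Apart from Mcm7, each of these 7 calls was lost under at least 1 alternative. The count of 7 was 2 without transgenic vehicle replicate 1 (Mcm7 and Mad2l1), 2 without AP20187 replicate 2 (Mcm4 and Mcm7), 4 without vehicle replicate 2 (Ccnd1, Ccnd3, Cdk2 and Mcm7) and 5 without AP20187 replicate 1 (Ccnd2, Ccnd3, Mcm2, Mcm7 and Aurka). On the authors' table of log2 values 2 members rose and 0 fell (limma), and 62.5% of called genes were higher in place of 48.9%; after quantile normalization the split was 61.4% with 2 members higher and 3 lower. Of 14 macrophage and leucocyte markers 12 fell with AP20187 and 0 rose (median -0.92), with summed levels of 5.29 to 5.45 after vehicle and 4.50 to 4.55 after AP20187. Of 9 fibroblast markers 4 fell and 0 rose, and of the 10 fibre markers 2 fell and 0 rose. The part of these cells in the members' changes was not tested.

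In C2C12 no member passed. Of 29 tested, 0 rose and 0 fell in limma, against 0.324% and 0.202% of all 11409 genes tested; 2 had an unadjusted p under 0.05, E2f1 (-0.36) and Ccne1 (-0.31), and the smallest adjusted p was 0.251. The 29 changes ran from -0.36 to 0.48 on the log2 scale. The median was -0.05 over the members and -0.06 over all genes. Unlike in muscle, the late genes were bright here, so that their intervals are narrow. Mki67 read 3.41 and 3.35 after vehicle and 3.32 and 3.36 after AP20187, with a 95% interval of -0.30 to 0.22 for the change. Top2a read 1.84 and 2.10 against 1.82 and 2.01 (-0.36 to 0.25). Ccnb2 had 3.42 and 3.43 against 3.33 and 3.30 (-0.37 to 0.14), and Plk1 2.75 and 2.70 against 2.44 and 2.65 (-0.46 to 0.09). Cdk1 had 1.73 and 0.86 against 1.18 and 1.40, and the wide vehicle pair gave an interval of -0.49 to 0.49. Pcna, with 5.38 and 5.23 against 5.13 and 5.56, had one of -0.29 to 0.37.

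The genes that changed in muscle had these values in C2C12. Mcm7 read 4.25 and 4.42 after vehicle and 4.28 and 4.18 after AP20187, and Mcm4 4.36 and 4.24 against 4.00 and 4.21. Ccnd1 read 1.59 and 1.67 against 1.41 and 1.77, Ccnd2 1.99 and 2.21 against 2.23 and 2.23, and Ccnd3 4.69 and 4.99 against 4.50 and 4.78. Aurka had 2.08 and 1.93 against 1.73 and 2.08, and Mad2l1 2.21 and 1.87 against 2.17 and 2.2. The groups overlapped in Mcm7, Ccnd1, Ccnd3, Aurka and Mad2l1; in Mcm4 AP20187 was lower and in Ccnd2 higher on both arrays. Rrm1, with 3.62 and 3.85 against 3.62 and 3.69, and Tyms, with -1.98 and -2.09 against -1.54 and -1.56, did not pass. Among all called genes 61.7% were higher, and other scalings gave 76.4% (quantile), 79.8% (percentile over probes above background) 85.7% (the authors' table) and 47.7% (normexp), with 0 members called in each. Of 7 adipocyte markers tested 5 rose with AP20187 in C2C12 and 0 fell, with summed levels of -0.07 to 0.48 after vehicle and 3.22 to 3.69 after AP20187, and of 9 fibre markers 2 fell and 0 rose; their part in the members' values was not tested. Vehicle samples were in row 1 of the slide and AP20187 samples in row 2 per the headers, and the effects of row and treatment cannot be told apart.

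**Figure D4:**
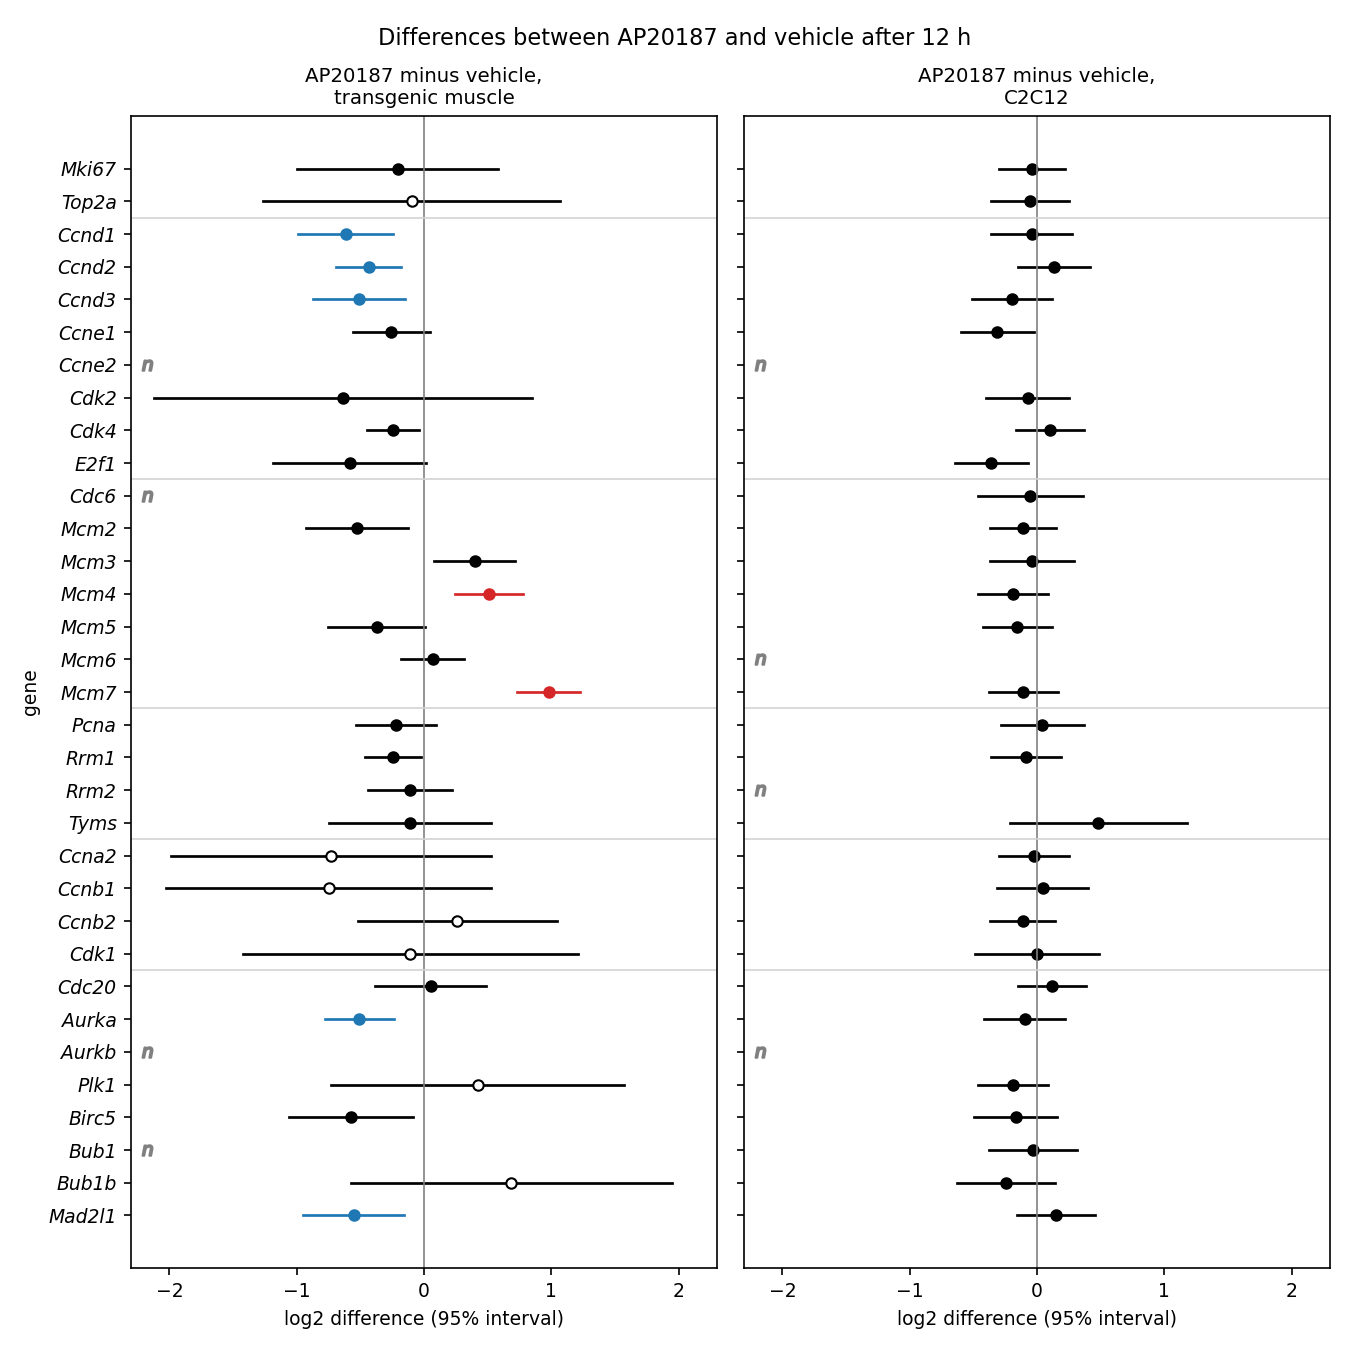
Log2 change with AP20187 against vehicle, with 95% intervals from limma, for the 33 genes in transgenic muscle (left) and C2C12 (right). Red and blue mark genes past an adjusted p of 0.05, which are 7 in muscle and 0 in C2C12, open points are genes not above background on either array of a group, and n was not tested.

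Whether AP20187 acted unequally on a gene in mice and in cells was tested by an interaction term. Of 29 members 2 had a higher change in muscle, against 8.01% of all 14094 genes tested, and 0 a lower one in limma, against 4.02%. They were Mcm7, with a difference of 1.09 (SE 0.15, adjusted p = 0.00255), and Mcm4, with 0.70 (SE 0.16, adjusted p = 0.0218). The D-type cyclins did not pass: Ccnd2 differed by -0.57 (interval -0.94 to -0.19, adjusted p = 0.0531), Ccnd1 by -0.58 (adjusted p = 0.145) and Ccnd3 by -0.31 (adjusted p = 0.401). Mad2l1 (-0.70), Cdk4 (-0.34), Ccnd1 and Ccnd2 had unadjusted p-values under 0.05. Dose, route and scan session differ between mice and cells. Of all called genes 66.6% were higher in muscle, and 50.8% with normexp. Mcm7 passed under every alternative, and Mcm4 missed the threshold under 7 of 17 (adjusted p up to 0.0766), among them quantile normalization (1 member higher and 2 lower), the authors' table and the leaving out of either transgenic vehicle array, of transgenic AP20187 replicate 1 and of replicate 1 of either C2C12 group.

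Other pathway genes are given by list, and their counts stand against the 14.3% of all genes that rose and the 15% that fell with AP20187 in muscle. Of 17 checkpoint and phosphatase genes tested 6 rose and 1 fell, with a median change of 0.24. Btg2, an antiproliferative gene, went from 0.00 and -0.22 to 2.48 and 1.88 (4.89-fold higher, adjusted p = 0.00069), the kinase gene Plk2 rose 2.89-fold and the tumour suppressor gene Trp53 2.45-fold. Of 11 CDK inhibitors and pocket proteins, Cdkn1a, which encodes an inhibitor of Cdk2, rose 2.38-fold, from 2.76 and 2.57 to 3.90 and 3.93 (adjusted p = 0.0321), while Cdkn2c and Cdkn2d fell 1.86-fold and 1.41-fold. Of 12 genes of the E2F, FoxM1 and Myb list, E2f2 (2.21-fold) and E2f6 (1.58-fold) fell and Lin9 (1.73-fold) and E2f5 (1.93-fold) rose; E2f5 was named after its value was seen.

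Of 39 origin and replication genes 7 fell, a share near that of all genes, and 2 rose. Prim1, a primase subunit, fell 1.99-fold. The licensing factor Cdt1 rose 1.98-fold, from -1.58 and -1.80 to -0.93 and -0.48, and its inhibitor geminin (Gmnn) fell 1.63-fold, from -0.09 and 0.04 to -0.82 and -0.63. Of 28 spindle, kinetochore and cytokinesis genes 2 rose and 3 fell: Tpx2 (adjusted p = 0.00222, not above background after vehicle) and Incenp (1.99-fold) rose, and Spc25 fell 2.03-fold. Tpx2 (-1.70 and -1.48 in wild type, -3.92 and -4.32 after vehicle, -2.33 and -2.18 after AP20187) and Spc25 (-1.04 and -1.03, 0.01 and 0.07, -1.01 and -0.95) thus lay apart from wild type after vehicle in opposite directions. Of 19 other cyclins and CDKs 6 rose and 2 fell, with Cdk13 (1.87-fold) and Cdk18 (1.53-fold) higher and Ccnk (1.35-fold) lower. In C2C12, 1 gene of these 6 lists passed: Gadd45a, a stress-induced growth arrest gene, rose 2.24-fold, from 2.85 and 2.67 to 3.97 and 3.88 (adjusted p = 0.000595), and in muscle it rose 2.2-fold, from 4.38 and 4.26 to 5.14 and 5.77.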

How the data were processed

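The deposited scanner files hold an intensity for each spot. Per the file headers the scanner software, Agilent Feature Extraction 10.7.1.1, had removed the background, and the authors also deposited a table of log2 values of the same arrays. Set against the log2 intensities, its between-array differences gave r of 0.9998 or more, and its column medians ran from -0.57 to 0.80, so that its scale is log2 while its centring is unknown. Labelling started from 150 ng of RNA per the labels.

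Control spots and spots with outlier flags were left out, spots of a probe averaged, and log2 intensity taken relative to the 75th percentile of each array. RefSeq accessions gave 26056 of 55681 gene probes a symbol (GRCm38.p6 table, names only). For genes with several probes the brightest was used, preferring probes with a value on all arrays. Genes entered a test when some group of that fit had them above background on its 2 arrays.

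The linear models of limma 3.58.1 (lmFit, then eBayes with trend; R 4.3.3) were used with Benjamini-Hochberg adjustment over all genes tested. Both comparisons within muscle used the 6 muscle arrays (3 residual degrees of freedom), AP20187 in C2C12 the 4 C2C12 arrays (2), and the others all 10 arrays (5). The tests were tested on simulated data. All 33 members are accounted for. Values on each array are given for the members called with AP20187, for Mki67, Top2a, Cdk1, Pcna and the D-type cyclins, and for the 4 largest and 4 smallest differences from C2C12; of each pathway list the 3 called genes with the smallest p are named. The members and the lists were chosen with earlier results of these data known. Precision is limited by the 2 arrays per group.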

Additional observations from a re-analysis of the deposited data

Results flagged for a closer look

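Mcm7 and Mcm4 were flagged because their AP20187 changes differed between muscle and C2C12 by the interaction test over all 10 arrays (limma). As 2 of 29 members tested they make 6.90%, below the 8.01% of all genes tested that were called higher. Mcm4 missed the threshold under 7 of 17 alternatives. The log2 change in muscle minus that in C2C12 was 1.09 for Mcm7 (adjusted p = 0.00255) and 0.70 for Mcm4 (adjusted p = 0.0218). Both were higher after AP20187 on 2 of 2 muscle arrays than on either vehicle array. The interaction test already rests on those values, so the separation is no further evidence for either gene. Groups of 2 arrays are too small for a check of single outlying arrays.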

How the results depend on the processing

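The count of members called was within 1.5 times of its main value except as follows. For AP20187 in transgenic muscle (7 called) it was 2 on the authors' log2 table, 4 with no filter on dim probes, 12 with the replicate block, and 2 to 5 when 1 array was left out. For transgenic vehicle against wild type muscle (21 called) it was 10 to 18 with 1 array left out. For the difference between the AP20187 changes (2 called) it was 1 on the authors' table and 1 to 3 with 1 array left out. It stayed 0 for AP20187 in C2C12 and 29 to 31 for muscle against C2C12.

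Sign changes were all in values that had not passed, apart from Mad2l1. In transgenic muscle with AP20187, quantile normalization gave 0.032 for Mki67, 0.16 for Top2a and 0.0078 for Cdk1, the mean over probes gave 0.0752 for Mki67 and 0.0754 for Mad2l1, and leaving out 1 array gave -0.62 to 0.20 for Mki67, -0.24 to 0.044 for Top2a and -0.27 to 0.053 for Cdk1. In C2C12, quantile normalization gave 0.060 for Mki67, 0.025 for Top2a and 0.054 for Ccnd1, and the percentile over probes above background 0.052, 0.038 and 0.052. There normexp gave 0.17 for Top2a and -0.29 for Cdk1, the mean over probes -0.16 and the authors' table -0.019 for Cdk1. Leaving out 1 C2C12 array gave -0.19 to 0.076 for Top2a, -0.22 to 0.14 for Ccnd1, -0.17 to 0.26 for Pcna and -0.43 to 0.44 for Cdk1. The cause was not tested. Calls that held under every alternative tried were 1 of 7 (Mcm7), 9 of 21, 27 of 29 and 1 of 2 (Mcm7) in these comparisons. Over single genes, 881 values kept their side of the threshold, 96 lost it and 27 changed sign.

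Replicate numbers pair nothing here that the labels explain. Deviations of samples with the same number correlated at 0.02 to 0.35, over 2 pairs in each comparison. The replicate block left 0 calls in C2C12 and the 29 calls against C2C12, and gave 22 for transgenic vehicle against wild type. The slide as a block was not run, since it could not be fitted in any comparison: header slide numbers list 2 array positions in 2 scan sessions. The 4 transgenic arrays alone, which share a session, gave 2 members higher and 4 lower with AP20187. Normexp used median signals, an alternative chosen after the data were seen. Values near the background, as for the late genes in transgenic muscle, limit what can be read there.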
